A study of Homo sapiens with 2 samples.

Results

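HOX cluster genes were measured in 2 lines of MKN1, a cell line established from a human gastric cancer. The members are the probe sets whose only gene symbol is HOX followed by a cluster letter from A to D and a number, and 23 of the 17687 genes named on the array met that rule. Of the 39 HOX genes in the gene table, the 16 others were not analysed here. The analysed members are 1 gene of the HOXA cluster on chromosome 7, 8 of HOXB on chromosome 17, 6 of HOXC on chromosome 12 and 8 of HOXD on chromosome 2, each with 1 probe set.

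The RHOA Y42C line was MKN1 given a pBABE-puro plasmid for RHOA with the Y42C substitution, and the RHOA wild-type line was MKN1 given the same plasmid type for unmutated RHOA. RHOA is a small GTPase that controls the actin cytoskeleton. Both lines were selected with puromycin, grown in the same medium and sampled once as total RNA, so each group is 1 array, and differences come with neither a replicate error nor a test. The vector adds RHOA to what the cells already make, a parental or empty-vector line was not analysed here, and the labels do not say whether a line is a clone or a pool.

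HOX genes encode homeodomain transcription factors that give cells their position along the body axis. They lie in 4 clusters, and genes with the same number in different clusters, called paralogues, descend from 1 ancestral gene. Low numbers act at the head end and early, high numbers towards the tail and late, in the order in which the genes lie on the chromosome. HOX proteins bind DNA together with PBX and MEIS proteins, Polycomb complexes keep the clusters silent, and Trithorax and MLL complexes keep them active. Adult epithelia and tumours often keep part of this code on.

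Promoter entries matched 9 of the 23 members. The 250 bases before the annotated start are shown for the 3 of these genes with signal above background, HOXA2, HOXD11 and HOXD12, and for HOXD10, the neighbour of HOXD11, which had background signal. They are from RefSeq on GRCh38.p14, at chr7:27102684-27102933 on the minus strand for HOXA2 and on the plus strand at chr2:176099545-176099794 for HOXD12, chr2:176107030-176107279 for HOXD11 and chr2:176116528-176116777 for HOXD10, and each lies upstream of its gene and overlaps no gene of the table. Capitals mark matches on either strand to TGATTNAT, a site of the kind that PBX-HOX pairs bind, or to CCAAT, the CCAAT box.
HOXA2: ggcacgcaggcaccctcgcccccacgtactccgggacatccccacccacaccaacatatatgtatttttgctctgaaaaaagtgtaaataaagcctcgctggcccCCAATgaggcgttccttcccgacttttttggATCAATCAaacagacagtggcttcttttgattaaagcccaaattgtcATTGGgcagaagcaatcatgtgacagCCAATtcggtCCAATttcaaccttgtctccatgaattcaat
HOXD12: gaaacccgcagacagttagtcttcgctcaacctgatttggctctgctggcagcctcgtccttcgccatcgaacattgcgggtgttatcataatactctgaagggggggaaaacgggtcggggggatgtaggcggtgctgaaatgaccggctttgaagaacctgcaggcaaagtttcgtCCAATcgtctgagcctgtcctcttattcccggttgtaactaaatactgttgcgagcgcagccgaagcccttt
HOXD11: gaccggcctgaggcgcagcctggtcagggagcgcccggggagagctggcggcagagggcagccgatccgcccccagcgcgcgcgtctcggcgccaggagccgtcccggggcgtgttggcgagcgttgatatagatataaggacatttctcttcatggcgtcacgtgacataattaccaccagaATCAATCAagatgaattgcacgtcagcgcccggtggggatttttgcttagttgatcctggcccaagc
HOXD10: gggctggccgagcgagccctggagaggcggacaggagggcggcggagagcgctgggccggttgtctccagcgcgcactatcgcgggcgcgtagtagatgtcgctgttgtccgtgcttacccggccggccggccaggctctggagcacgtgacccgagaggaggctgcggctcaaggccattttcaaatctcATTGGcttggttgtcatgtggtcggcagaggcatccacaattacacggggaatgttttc

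TGATTNAT was found 1 time each before HOXA2 and HOXD11, with its first base 114 and 67 bases before the start, and in 2.49% of the 34941 windows of the promoter table. It was in 2 of the 3 windows of members above background and in 0 of the 6 windows of members below it. This split rests on few windows and on the cut-off, since HOXA2 fell below background with a stricter one. The other members above background, among them HOXB7, HOXC10 and HOXC13, had no window. CCAAT was found 4 times before HOXA2 and in 7 of the 9 HOX windows, against 32.0% of all windows. It was missing before HOXD11, above background, and before HOXD8, below it. TATAAA, the TATA box core, was found in 1 of the 9, that of HOXD13, a member below background, and in 10.8% of all windows. Not all 9 windows are clear of genes. Those of HOXD13 and HOXD3 overlap their own genes in the gene table, and that of HOXD8 overlaps a noncoding RNA gene. The HOXD11 and HOXD10 windows each held 23 CG dinucleotides, HOXD12 16 and HOXA2 8, with a median of 11 over all windows. These are counts of letters, and the arrays did not measure binding.

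The array gives no detection call, so signal was set against 349 olfactory receptor genes, a family used mainly by sensory neurons of the nose. Their median log2 signal was 3.73 in the Y42C array and 3.60 in the wild-type array. A gene was called above the minimum where its value reached the 95th percentile of this family, 5.14 in the Y42C array and 5.17 in the wild-type array. Probe sets differ in brightness for reasons of their own, so signals of different genes are compared with this background only and are not ranked against each other.

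Of the 23 HOX genes, 10 (43.5%) were above the minimum in at least 1 array, against 66.7% of all 17687 genes and 6.30% of the olfactory receptor genes. Above it in both arrays were 7, namely HOXA2, HOXB7, HOXC9, HOXC10, HOXC13, HOXD11 and HOXD12, against 61.9% of all genes. HOXB6, HOXB9 and HOXB13 reached it in the wild-type array alone, and 0 HOX genes did so in the Y42C array alone. Of 76 listed homeobox genes outside the clusters, 71 were analysed and 35 (49.3%) of these were above the minimum in at least 1 array. Above the minimum were 1 of 4 anterior genes (numbers 1 to 3), 2 of 7 central genes (4 to 8) and 7 of 12 posterior genes (9 to 13).

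**Figure D1:**
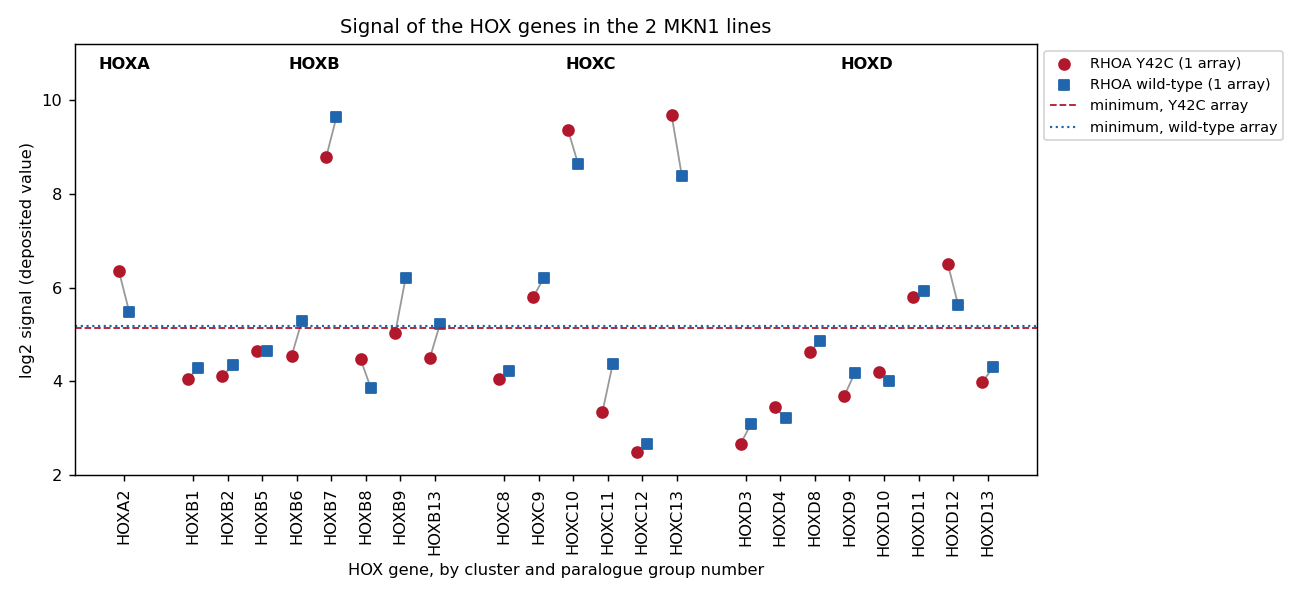
Log2 signal of the 23 HOX genes (y axis) by cluster and paralogue number (x axis), with the Y42C array as red circles, the wild-type array as blue squares and each array's minimum as a horizontal line. HOXB7, HOXC10 and HOXC13 stand between 8.38 and 9.69 in both arrays, and 13 genes lie below both lines.

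HOXB7, HOXC10 and HOXC13 stood far above the background in both arrays. HOXC13, known for its part in hair follicle and nail differentiation, had a log2 signal of 9.69 in the Y42C array and 8.38 in the wild-type array. HOXC10, known in the mouse for its part in hindlimb and lumbar spinal cord patterning, had 9.37 in the Y42C array and 8.63 in the wild-type array. HOXB7, a central HOX factor studied in several carcinomas, had 8.78 in the Y42C array and 9.64 in the wild-type array. HOXC13 and HOXC10 exceeded all 349 olfactory receptor genes in the Y42C array and all but 1 in the wild-type array, and HOXB7 exceeded all but 1 in both.

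The other 7 members above the minimum lay nearer to it. HOXA2, which patterns the second branchial arch, had 6.36 in the Y42C array and 5.49 in the wild-type array. HOXD12, a limb patterning gene, had 6.50 in the Y42C array and 5.62 in the wild-type array, and its neighbour HOXD11, also a limb gene, had 5.81 in the Y42C array and 5.93 in the wild-type array. HOXC9, which acts in thoracic spinal cord identity in the mouse, had 5.80 in the Y42C array and 6.21 in the wild-type array. These 4 were above the minimum in both arrays.

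HOXB9, a factor of thoracic patterning and mammary gland development in the mouse, had 5.03 in the Y42C array, below the minimum, and 6.20 in the wild-type array. HOXB6 had 4.54 in the Y42C array and 5.29 in the wild-type array. HOXB13, which acts in the prostate and the tail end of the body, had 4.49 in the Y42C array and 5.23 in the wild-type array. HOXB6 and HOXB13 passed the wild-type minimum by 0.12 and 0.06, and HOXB9 by 1.03.

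**Figure D2:**
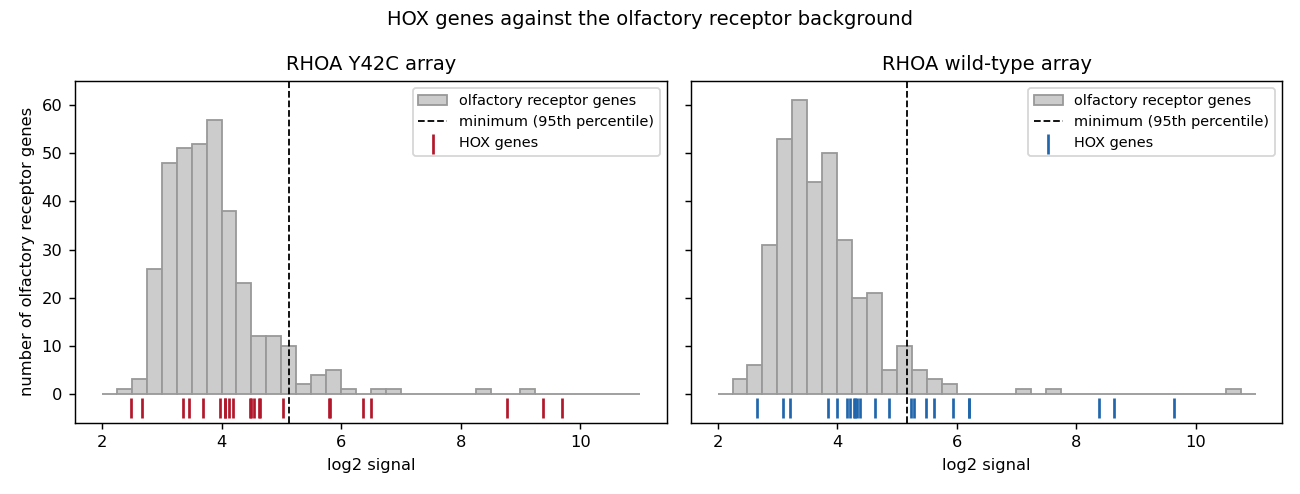
Histograms of the log2 signal of 349 olfactory receptor genes (x axis signal in bins, y axis number of genes) in the Y42C array (left) and the wild-type array (right), with the minimum as a dashed line and the 23 HOX genes as ticks below. In both arrays 3 HOX genes sit apart at high signal, and most of the others lie within the olfactory receptor distribution.

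The 13 HOX genes below the minimum in both arrays were HOXB1, HOXB2, HOXB5, HOXB8, HOXC8, HOXC11, HOXC12, HOXD3, HOXD4, HOXD8, HOXD9, HOXD10 and HOXD13. Their signals ran between 2.49 and 4.64 in the Y42C array and between 2.66 and 4.87 in the wild-type array. HOXD8 came closest in the wild-type array, with 4.62 in the Y42C array and 4.87 in the wild-type array, and HOXB5 read 4.64 in both arrays. HOXC12 had 2.49 in the Y42C array and 2.66 in the wild-type array, where 348 and 345 of the 349 olfactory receptor genes were as bright or brighter. For these 13 no fold is given, and a low level of RNA cannot be told apart from background signal of the probes.

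Genes above and below the minimum were interspersed along HOXB, HOXC and HOXD, in runs and not in strict alternation. HOX genes that were not analysed are left out of this order. In the HOXC cluster HOXC13 and HOXC10 were far above the minimum, while HOXC11 and HOXC12, which lie between them on the chromosome, were below it. HOXC11 had 3.35 in the Y42C array and 4.38 in the wild-type array. In HOXB, HOXB7 was the only member above the minimum in both arrays, and its neighbours HOXB6 and HOXB8 read 4.54 and 4.47 in the Y42C array and 5.29 and 3.85 in the wild-type array. In HOXD, HOXD11 and HOXD12 were above the minimum, with HOXD10 (4.19 in the Y42C array, 4.0 in the wild-type array) and HOXD13 (3.98 in the Y42C array, 4.30 in the wild-type array) on either side below it.

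Differences are Y42C minus wild-type on the log2 scale. HOXC13 was 2.48-fold higher in the Y42C array (1.31), the 1 HOX gene at least 2-fold higher among the 10 above the minimum. HOXB9 was at least 2.09-fold lower (-1.17 in the deposited values), a bound because its Y42C value was below the minimum, and it was the 1 HOX gene at least 2-fold lower. With a constant of 16 added to the linear values its difference was -0.88, under 2-fold. Over all 11802 genes that passed the minimum in at least 1 array, the share past 2-fold was 7.46% for higher and 9.80% for lower in the Y42C array. At 1 of 10 in each direction, the HOX genes were close to these shares.

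HOXD12 was 1.84-fold higher (0.88), HOXA2 1.83-fold higher (0.87) and HOXC10 1.67-fold higher (0.74) in the Y42C array. HOXB7 was 1.82-fold lower (-0.86), HOXC9 1.33-fold lower (-0.41) and HOXD11 1.09-fold lower (-0.12). These 6 did not pass 2-fold. The bounds for HOXB6 and HOXB13 were at least 1.11-fold and at least 1.07-fold lower, from deposited differences of -0.75 and -0.74. For HOXC11 the deposited difference of -1.03 lay within the background range in both arrays and gives no fold.

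Of the 7 members above the minimum in both arrays, 4 were higher and 3 lower in the Y42C array, with a median difference of 0.74. Past 2-fold were 1 of these 7 higher and 0 lower, where the shares over all genes above the minimum in both arrays were 6.90% higher and 9.43% lower. Over all 10 the median was -0.27 and the mean -0.025, against a median of -0.07 over all genes above the minimum. The 3 members that passed through the wild-type array alone had to be lower in Y42C to be there, so the median over the 10 leans to lower values by its own selection. The spread of differences was 0.768 (SD) over all genes above the minimum, and 0.440 over the olfactory receptor genes.

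**Figure D3:**
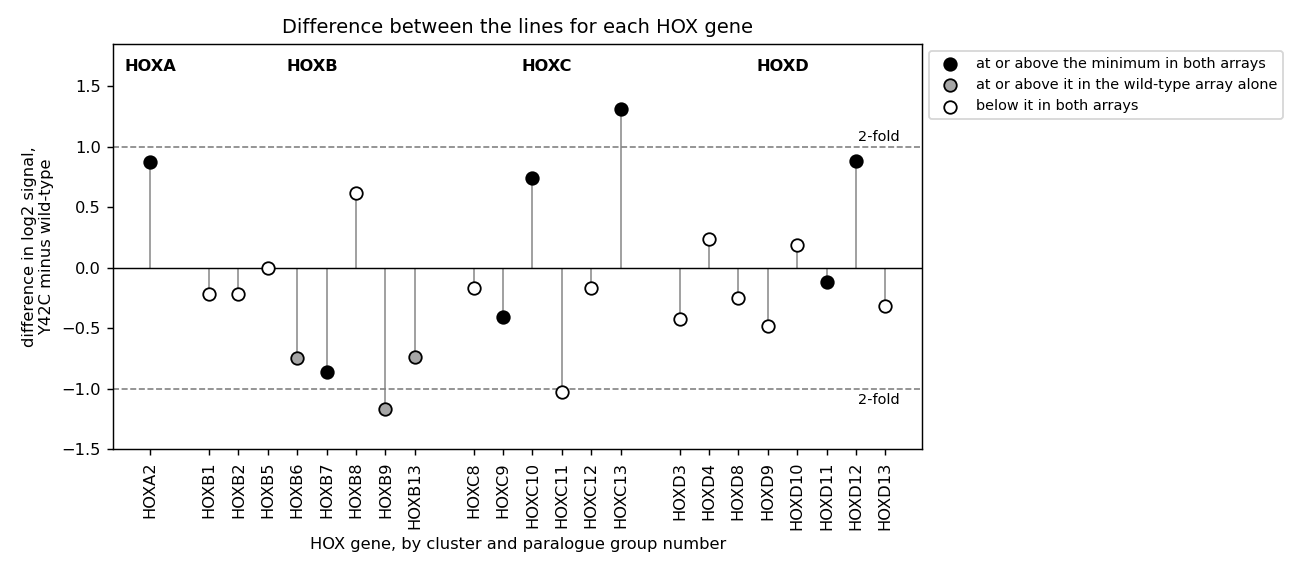
Difference in log2 signal, Y42C minus wild-type (y axis), for the 23 HOX genes by cluster and number (x axis), with black points above the minimum in both arrays, grey points above it in the wild-type array alone and white points below it in both. HOXC13 at 1.31 and HOXB9 at -1.17 lie beyond the dashed 2-fold lines, and HOXC11 at -1.03 does so within the background range.

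By cluster, the 4 HOXB genes above the minimum had differences between -1.17 and -0.74, and 3 of these 4 passed in the wild-type array alone. Over all 8 HOXB genes measured, 6 were lower, 1 higher and 1 equal in the Y42C array. Over all 17687 genes, with no minimum, 9081 were lower and 8462 higher. Among the 6 lower HOXB genes, HOXB1 and HOXB2 were at background in both arrays, with differences of -0.22 each. The higher one was HOXB8, also at background, with 4.47 in the Y42C array and 3.85 in the wild-type array. The 3 HOXC genes above the minimum had differences of 1.31, 0.74 and -0.41, and the 2 HOXD genes 0.88 and -0.12. HOXA2 was the only HOXA gene analysed. No test of the difference between clusters was possible with 1 array per line.

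Paralogues were set side by side. In group 13, HOXC13 had a difference of 1.31, HOXB13 was above the minimum in the wild-type array alone, and HOXD13 was below it in both arrays. In group 9, HOXB9 and HOXC9 had differences of -1.17 and -0.41, and HOXD9, with 3.69 in the Y42C array and 4.17 in the wild-type array, was below the minimum. In group 10, HOXC10 had 0.74 and HOXD10 was below the minimum. In group 2, HOXA2 had 0.87 and HOXB2, with 4.12 in the Y42C array and 4.34 in the wild-type array, was below the minimum. Close relatives can share probe sequence, and cross-hybridisation was not tested.

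The differences were also read against genes of like brightness. Of 1512 genes above the minimum whose mean signal lay within 0.5 of that of HOXC13, 74 (4.89%) were at least as far higher in the Y42C array. For HOXB9, in the lower direction, the share was 4.55% of 1626 genes, with its Y42C value below the minimum. In the higher direction it was 7.47% of 1552 for HOXA2, 7.88% of 1473 for HOXD12 and 14.4% of 1499 for HOXC10. For HOXB7, in the lower direction, it was 16.2% of 1498. The remaining members, all lower in Y42C, had shares between 15.4% (HOXB6) and 43.6% (HOXD11). These shares describe the 2 arrays and are no test.

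RNA of most genes for the DNA-binding partners of HOX proteins was above the minimum. Of 9 listed PBX, MEIS and PKNOX genes, 7 were analysed and 6 were above the minimum, where 66.7% of all genes were. Of these 6, 0 passed 2-fold in either direction, beside 7.46% higher and 9.80% lower of all genes. Their median difference was 0.46. With the trend on level removed, 1 passed as higher. PBX3 had the highest difference, with 7.73 in the Y42C array and 6.86 in the wild-type array (1.83-fold). PBX2 had the lowest, with 11.32 in the Y42C array and 11.78 in the wild-type array. MEIS2 had 9.56 in the Y42C array and 9.25 in the wild-type array, and MEIS3 had 10.52 in the Y42C array and 9.77 in the wild-type array. MEIS1, a partner of many posterior HOX proteins, was below the minimum, with 4.83 in the Y42C array and 4.63 in the wild-type array.

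Products of Polycomb genes silence HOX clusters through histone H3 and H2A marks. Of 28 listed genes, 22 were analysed and all 22 were above the minimum, where 66.7% of all genes were. PCGF2, a subunit of Polycomb repressive complex 1 also called MEL18, was 2.35-fold higher, with 12.03 in the Y42C array and 10.80 in the wild-type array. RBBP4, a histone-binding subunit of Polycomb repressive complex 2 that also serves other complexes, was 2.57-fold lower, with 10.06 in the Y42C array and 11.42 in the wild-type array. These were the 1 gene past 2-fold in each direction, 4.55% each, beside 7.46% higher and 9.80% lower of all genes, and the median was 0.26. EZH2, the main histone methyltransferase of the group, had 10.88 in the Y42C array and 11.12 in the wild-type array.

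Trithorax and MLL genes differed in both directions. Of 20 listed, 18 were analysed and all 18 were above the minimum, where 66.7% of all genes were. Of these, 4 passed 2-fold as higher and 4 as lower in the Y42C array, against 7.46% and 9.80% of all genes. The median was 0.30. With each array centred on its own median, 7 passed as higher, where 8.73% of all genes did. In the deposited values the higher ones were the histone H3 methyltransferases KMT2D (2.43-fold), KMT2C (2.36-fold) and KMT2B (2.07-fold), and MLLT1, an elongation factor subunit (2.35-fold). KMT2D had 10.46 in the Y42C array and 9.18 in the wild-type array, and KMT2C had 11.28 in the Y42C array and 10.04 in the wild-type array. KMT2A, the MLL1 enzyme best known for keeping HOX genes on, had 9.80 in the Y42C array and 9.82 in the wild-type array.

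The lower ones were PSIP1, a chromatin tether of the MLL1-menin complex (3.34-fold), RBBP5 (2.69-fold) and WDR5 (2.25-fold), core subunits shared by the KMT2 enzymes, and MLLT10, a partner of DOT1L (2.30-fold). PSIP1 had 8.09 in the Y42C array and 9.83 in the wild-type array, and RBBP5 had 9.08 in the Y42C array and 10.51 in the wild-type array. KDM6A and KDM6B, demethylases that remove the Polycomb mark, lay just under 2-fold, with differences of 0.99 and 0.94.

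**Figure D4:**
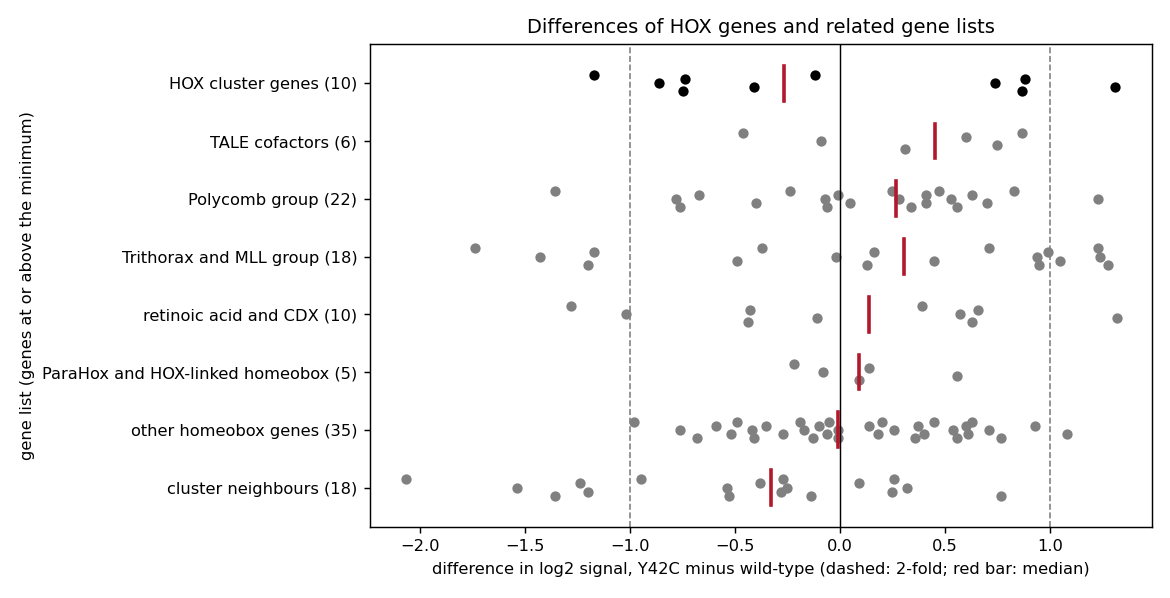
Difference in log2 signal, Y42C minus wild-type (x axis), for genes above the minimum in the HOX clusters and in 7 related lists (y axis, number of genes in brackets), each point a gene and each red bar the median. HOX genes run between -1.17 and 1.31, and Trithorax and MLL genes between -1.74 and 1.28 with 4 beyond 2-fold on each side.

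Retinoic acid and CDX factors switch HOX genes on in the embryo. Of 16 genes analysed for this route, 10 were above the minimum, 1 was at least 2-fold higher and 2 were at least 2-fold lower, where all genes gave 7.46% and 9.80%, and the median was 0.14. The lower count was 1 with the arrays centred, with the trend on level removed or with a constant of 16 added. It was also 1 with each array's median over the named genes as minimum. RARA, a retinoic acid receptor, was 2.50-fold higher, with 10.48 in the Y42C array and 9.16 in the wild-type array. ALDH1A3, which makes retinoic acid, was 2.03-fold lower, with 11.81 in the Y42C array and 12.83 in the wild-type array, a difference of -1.02 close to the threshold. Its relative ALDH1A1 was at least 2.34-fold lower, with 5.08 in the Y42C array, below the minimum, and 6.36 in the wild-type array. CDX2, an intestinal transcription factor, had 8.81 in the Y42C array and 8.18 in the wild-type array, and CDX1 and CDX4 were below the minimum in both.

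Homeobox genes outside the clusters were counted in the same way. Of the 35 above the minimum in the list of genes outside the clusters, 1 was past 2-fold as higher and 0 as lower, beside 7.46% and 9.80% of all genes, with a median of -0.01 that turned to 0.05 with the arrays centred and 0.03 after quantile normalization. The higher one, TLX2, had 5.33 in the Y42C array and 4.25 in the wild-type array, below the minimum, so its bound was at least 1.12-fold. TGIF2, at the lower end, had 8.93 in the Y42C array and 9.91 in the wild-type array. In the list of 10 ParaHox and HOX-linked homeobox genes 5 were above the minimum, where 66.7% of all genes were. Of these 5, 0 passed 2-fold and the median was 0.09, with GSX1 at 0.56 and GSX2 at -0.22. Of 24 listed noncoding RNA genes of the clusters, 2 were analysed. HOXA-AS3 had 4.79 in the Y42C array and 5.28 in the wild-type array, and HOXB-AS3 had 4.34 in the Y42C array and 4.41 in the wild-type array.

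Genes beside and inside the clusters were taken from the gene table, 3 protein-coding genes on each side. Of 27 listed, 23 were analysed and 18 were above the minimum, where 66.7% of all genes were. Of these 18, 5 (27.8%) were lower by at least 2-fold and 0 higher, against 9.80% lower and 7.46% higher of all genes above the minimum. Their median was -0.33, against -0.07 over all genes. The 5 were MTX2 beside HOXD (difference -2.07), CALCOCO2 beyond HOXB13 (2.91-fold), LNPK near HOXD (2.57-fold), SNX10 near HOXA (2.36-fold) and ATP5MC2 beyond HOXC13 (2.30-fold). CALCOCO1, which borders HOXC13, had the highest difference, with 9.16 in the Y42C array and 8.39 in the wild-type array. EVX2, the homeobox gene that borders HOXD13, had 5.83 in the Y42C array and 5.74 in the wild-type array, and EVX1, which borders the HOXA cluster, was below the minimum in both. PRAC1 and PRAC2, which lie between HOXB9 and HOXB13, were also below it in both arrays.

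The 2 lines carried epithelial markers in 7 of 8 cases, among them KRT8 (17.94 in the Y42C array, 17.96 in the wild-type array) and CLDN7 (9.31 in the Y42C array, 10.61 in the wild-type array), but CDH1, the E-cadherin gene, was below the minimum in both. Of 10 gastric markers 4 were above the minimum in at least 1 array, namely GATA4, GATA6, CLDN18 and ANXA10. ANXA10 had 5.55 in the Y42C array and 3.78, below the minimum, in the wild-type array. MUC5AC, MUC6, TFF1, TFF2, GKN1 and PGC were below it in both. Of 5 intestinal markers 1, CDX2, was above it. The other marker lists were also partly or wholly above the minimum. They gave 3 of 5 fibroblast, 3 of 4 leukocyte (1 of them in both arrays), 2 of 3 endothelial and 4 of 4 squamous genes (3 of them in both arrays). Over all genes the share was 66.7% in at least 1 array and 61.9% in both. Counts from such short lists therefore do not name a cell type. Several of these markers differed more between the arrays than any HOX gene above the minimum. SPRR1B, a squamous envelope gene, had 9.70 in the Y42C array and 4.30 in the wild-type array, below the minimum, and SERPINB3, a squamous antigen, had 8.08 in the Y42C array and 11.76 in the wild-type array. LUM, a matrix gene of fibroblasts, had 14.37 in the Y42C array and 12.09 in the wild-type array, and CD14, a monocyte gene, had 5.67 in the Y42C array and 7.45 in the wild-type array. Their lists did not move as one. The leukocyte genes PTPRC (5.39 in the Y42C array, 4.61 in the wild-type array) and CD3E (5.67 and 4.70) were higher. Of the fibroblast genes, COL1A2 (8.72 and 7.68) was higher and COL1A1 (5.84 and 6.05) lower, while DCN and PDGFRB were below the minimum. The part of these markers in the HOX values was not tested. RHOA had 16.30 in the Y42C array and 16.47 in the wild-type array, a value that sums vector and native RNA as far as the probes read both.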

How the data were processed

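Total RNA of 2 MKN1 lines, 1 array each, was hybridised as biotinylated cRNA to Affymetrix arrays, per the labels' protocols. The authors deposited 1 value per probe set, used here as log2 signal because of their range, 2.23 to 18.16. The log base is not given in the sources used here, so each fold assumes log2. Affymetrix Expression Console was used per the submitters' processing notes. Which version it was, and how background, summary and scaling between arrays were handled, is not given in the sources used here. Medians over all probe sets were 6.36 for Y42C and 6.42 for wild-type, and centring used these. For the main results the values were not normalized further.

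The platform annotation named 1 gene for 17709 of 21448 probe sets and several for 0, and 3739 are unnamed here. The 23 HOX symbols matched the RefSeq gene table (GRCh38.p14) by Entrez identifier. Probe sets of 1 gene were averaged. A gene counted as above the minimum where it reached, on at least 1 array, the 95th percentile of olfactory receptor genes, which kept 11802 genes, including 22 of that family. Where the dimmer array was below its minimum, the fold is a lower bound, the brighter value over that minimum. Counts past 2-fold use the deposited values. There was no test, since each group has 1 array, and precision is limited by that number. All HOX genes were described, and from each related list the members past 2-fold and those at either end, with a few further members named after their values were seen. The members and lists were chosen with earlier results of these data known. The counting steps were tested on simulated data. The analysis ran in Python 3.11.15 with NumPy 2.4.6, pandas 2.3.3 and, for the lowess trend, statsmodels 0.14.6. Plots were drawn with matplotlib 3.10.9.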

Additional observations from a re-analysis of the deposited data

How the results depend on the processing

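The 10 HOX genes above the minimum were followed under 6 other treatments of the values. In 59 of the 60 cases a gene kept its sign and its side of 2-fold, and the exception was HOXB9, at -0.88 with a constant of 16 added to the linear values. Part of this tally was fixed in advance. Taking the brightest probe set cannot alter genes with 1 probe set. Centring adds the same amount to every difference, too little here to move any of the 10 past 0 or 2-fold. Adding a constant cannot change a sign. Setting low values to the minimum cannot alter the 7 genes above it in both arrays. Under that floor HOXB6 was at -0.15, HOXB13 at -0.09 and HOXB9 at -1.06, all counted among the 59. The array median, where used as a minimum, was that of the named genes, 6.72 in the Y42C array and 6.83 in the wild-type array. With it as minimum, 3 HOX genes were above it, HOXB7, HOXC10 and HOXC13. The number at least 2-fold higher was 4 at a 1.5-fold and 0 at a 4-fold threshold. The number at least 2-fold lower was 4 at 1.5-fold, 0 at 4-fold, 2 with no minimum, and 0 with the array median as minimum, with a constant of 16 or, chosen after seeing the data, among genes above the minimum in both arrays.

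The median HOX difference had no stable sign. It was -0.12 with the 99th percentile as minimum, -0.11 with low values set to the minimum and -0.025 as a mean, but 0.74 with the array median as minimum and 0.74 among genes above the minimum in both arrays. The changes of minimum alter which genes count, the floor alters values near the background, and the mean is another summary of the same 10 genes. For HOXB, 3 of the 4 genes had to be lower in Y42C because they passed in the wild-type array alone, so its sign shows nothing about stability. The HOXB median was -1.01 with the 99th percentile, -0.48 with no minimum, -0.66 with a constant of 16 and -0.51 with low values set to the minimum. The HOXC median was 1.02 with the array median as minimum, 0.86 with the trend on level removed (lowess, span 0.3), 0.55 as a mean and -0.17 with no minimum. The HOXD median was -0.12 with the 90th percentile and -0.18 with no minimum, and with the array median as minimum no HOXD gene was left.

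Of 281 values of the related lists and of all genes, 230 stayed within 1.5 times (counts) or 0.1 (medians), 41 moved and 10 changed sign. The median of all genes was 0.0043 with the trend removed. The retinoic acid and CDX median was -0.10 with no minimum. The ParaHox median was -0.08 with the 99th percentile or the array median and -0.015 with no minimum. The median of other homeobox genes was 0.16 and 0.26 with those 2 minimums, 0.05 centred on the array medians, 0.03 after quantile normalization and 0.037 with the trend removed. The number of retinoic acid and CDX genes at least 2-fold lower was 1 when centred, with the trend removed, with a constant of 16 and with the array median. The number of Trithorax and MLL genes at least 2-fold higher was 7 both when centred and with the trend removed. Over all genes those shares were 8.73% and 8.96%. No paired analysis was possible because each line has 1 array. Signal close to the background limits what can be said of all but HOXB7, HOXC10 and HOXC13.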
